A study of Mus musculus with 2 samples.

Results

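Genes of hepatic steroid hormone metabolism were followed in mouse liver: the dehydrogenases Hsd3b5, Hsd3b2, Hsd3b3, Hsd11b1, Hsd17b2 and Hsd17b6, the reductase Srd5a1, the hydroxylase and lyase Cyp17a1, and the aldo-keto reductase Akr1c6. These 9 genes were picked by symbol, with the difference between the libraries described here already known, so their levels and ratios are a description and carry no test. The table used holds 8551 genes, none with a mean under 1 TPM, and includes 7 of the 9, while Hsd3b2 and Hsd3b3 have no row in it. Liver RNA came from adult male mice, wild type in the normal group and db/db in the diabetic group, both on a C57BL/6 background by the labels, at 9 weeks of age and about 3 h into the light phase. The db/db mouse lacks the signalling form of the leptin receptor, so the loss is not confined to liver, and both groups ate chow freely. Each group is 1 library, several mice were kept per group, and whether their RNA was pooled is not stated. A pair of suppliers is named for both groups together, so supplier and genotype cannot be told apart.

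The liver takes up steroid hormones from blood and inactivates, reactivates or tags them for excretion. Hydroxysteroid dehydrogenases switch a hydroxyl group to a keto group or back, which turns a potent androgen, estrogen or glucocorticoid into a weak one or the reverse, while reductases saturate the ring that receptors recognise. In mice many of these enzymes differ between male and female liver, where the pulses of growth hormone set their level.

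Levels are DpnII tags of a gene per 1000000 clean tags of its library, which the authors call TPM. DpnII cuts cDNA at GATC, and the predicted tag of a gene is the last such site of its transcript with the bases after it, so a level carries no term for transcript length. The tags predicted from the RefSeq-matched GENCODE transcripts are shown because they decide which of these close paralogs can be counted apart, and capitals mark the DpnII site.
Hsd3b5: GATCtaggctatcagccact
Hsd3b2, Hsd3b3 and Hsd3b6: GATCgggacactagtggagc
Hsd3b1: GATCtgggctatgagccact
Hsd17b2: GATCaaaaggccgtgctggt
Hsd17b6: GATCccggattggtggctgt
Hsd11b1: GATCatggaatttttttcat
Srd5a1: GATCccagtaaagatgctgc
Cyp17a1: GATCccatgccttgacaccc
Akr1c6: GATCagagctctcctgttct

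Hsd3b2 and Hsd3b3, both without a row, had the same predicted tag of 20 bases, and Hsd3b6 had it too. The tag of Hsd3b5, which has a row, was its own and differed from the shared one at 12 of the 20 bases. Its nearest relative was the tag of Hsd3b1, with 2 bases different. For each of the 7 genes in the table, the predicted tag stood in no other gene, at the last site or at any other. The tag of Akr1c6 differed at 10 or more bases from those of the Akr1c12, Akr1c13, Akr1c14, Akr1c18, Akr1c20 and Akr1c21 genes. Among all genes with a RefSeq mRNA, 43.3% of the 18114 with a tag of their own and 12.0% of the 2046 with a shared tag were in the table. Of the 15 genes with a shared tag among the 9 and the related lists, 1 was in the table, Hsd3b7, whose tag also stands in the gene model Gm49388. The authors report reads on unique genes apart from reads on multiple genes, and give levels for unique genes. Whether this is why genes with a shared tag have no row was not tested. The labels name random hexamers for cDNA synthesis, so the site behind each counted tag is not known. Nothing is said here of the level of Hsd3b2 or Hsd3b3.

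On the GRCm38 assembly the Hsd3b5 tag lies at chr3:98619101-98619120 on the minus strand, in coding sequence of exon 3 of 3. The Hsd17b2 tag, at chr8:117702239-117702258 on the plus strand, is in coding sequence of exon 1 of 5 and starts 985 bases from the transcript's end, the farthest of the 9. The Akr1c6 tag is coding, in exon 7 of 9 at chr13:4449317-4449336 on the plus strand. The Hsd11b1 tag is coding, in exon 6 of 6 at chr1:193222049-193222068 on the minus strand. The other 3 tags are in the 3' untranslated region of the last exon and on the minus strand, that of Hsd17b6 at chr10:127991226-127991245, that of Srd5a1 at chr13:69574145-69574164 and that of Cyp17a1 at chr19:46667285-46667304.

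Of the 7 genes, 2 were at least 1.5-fold higher in db/db liver (Hsd11b1 and Cyp17a1), where 34.4% of all listed genes were, and 3 were at least 1.5-fold lower (Hsd3b5, Hsd17b2 and Hsd17b6), where 15.3% of all listed genes were. Srd5a1 and Akr1c6 stayed within 1.5-fold. Since the genes were selected on this comparison, nothing is read from these shares. The median log2 ratio, diabetic over normal, was -0.13 over the 7 genes and 0.25 over all listed genes. Scaling the libraries to each other in 4 other ways lowered each log2 ratio by 0.25 to 0.31, and the count of higher genes then was 1, since Hsd11b1 no longer reached 1.5-fold. Intervals below are exact 95% intervals from the reads, which cover counting error only, and no difference has a replicate check. In whole liver, fewer cells of a type and less RNA per cell cannot be told apart.

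**Figure D1:**
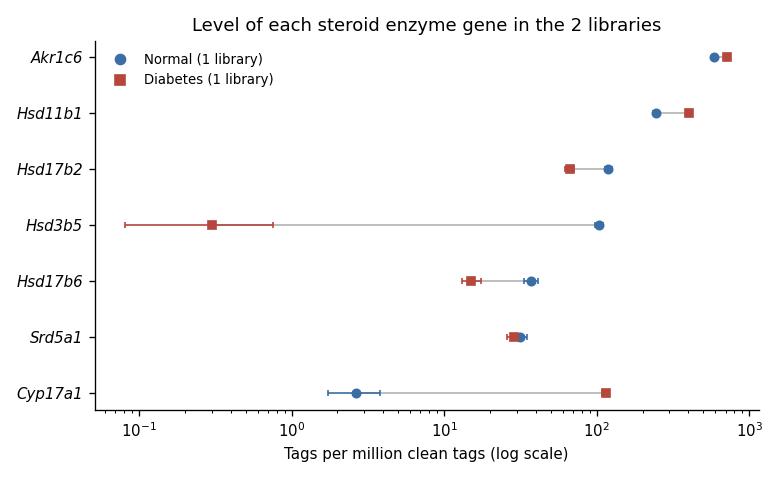
Level of each gene in tags per 1000000 clean tags (log axis), with circles for the normal library, squares for the diabetic library and bars for the exact 95% counting interval of each level. Hsd3b5 goes from 103.22 to 0.30 and Cyp17a1 from 2.63 to 114.45, while both points of Srd5a1 and of Akr1c6 lie close together.

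Hsd3b5 encodes a keto-steroid reductase of mouse liver that inactivates dihydrotestosterone and is known for its expression in males. It was counted 1061 times in normal liver, 103.22 TPM (97.1 to 109.6), and 4 times in db/db liver, 0.30 TPM (0.0807 to 0.758). The ratio was 344-fold lower, a log2 ratio of -8.43 with an interval of -10.32 to -7.08. By the ratio of deposited values, in which 0.01 TPM stands for no tag, it was the gene with rank 7 from the lowest of 8551, so genes of lower level with no tag in db/db liver can stand before it. In the order of levels it moved from rank 556 to rank 8528. With 4 reads the diabetic level is hardly above the 3 reads, 0.222 TPM, that a count of 0 would allow, so the size of the ratio depends on very few tags, and with a pseudocount of 1 TPM the log2 ratio was -6.32.

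Hsd17b2 oxidises estradiol and testosterone to their weaker keto forms. Its level was 119.18 TPM from 1225 reads in normal liver and 66.55 TPM from 899 reads in db/db liver. This is 1.79-fold lower, a log2 ratio of -0.84 (-0.97 to -0.72). At a threshold of 2-fold it was not among the lower genes as deposited.

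Hsd17b6 encodes an oxidative hydroxysteroid dehydrogenase related to retinol dehydrogenases that acts on androgens. It stood at 37.26 TPM (383 reads) against 15.1 TPM (204 reads), 2.47-fold lower in db/db liver, with a log2 ratio of -1.30 (-1.56 to -1.05). The intervals of both levels, 33.6 to 41.2 and 13.1 to 17.3 TPM, did not overlap. Reads of Hsd17b2 per read of Hsd17b6, a quotient that does not depend on scaling and was chosen after the values were seen, were 3.20 in normal liver and 4.41 in db/db liver. That quotient changed 1.38-fold (1.13 to 1.68), which is a description only, since the pair was chosen on these values.

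Akr1c6 is a liver enzyme of the aldo-keto reductase family that interconverts hydroxy and keto forms of estrogens and androgens. It was the most abundant of the 7 genes in both libraries, at 589.19 TPM (6056 reads) in normal liver and 718.6 TPM (9707 reads) in db/db liver. The log2 ratio was 0.29 (0.24 to 0.33) as deposited and between -0.02 and 0.03 under the other scalings, so its direction depends on the scaling.

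Within a library, Akr1c6 gained on both oxidative dehydrogenases, whatever the scaling. For each read of Hsd17b2 there were 4.94 reads of Akr1c6 (4.65 to 5.26) in normal liver and 10.8 (10.1 to 11.6) in db/db liver, a change of 2.18-fold (1.99 to 2.40). For each read of Hsd17b6 there were 15.8 reads of Akr1c6 (14.3 to 17.6) and 47.6 (41.4 to 54.9), a change of 3.01-fold (2.52 to 3.60).

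Srd5a1 encodes a steroid reductase that acts on testosterone, progesterone and corticosterone. Its level was 31.42 TPM from 323 reads in normal liver and 28.72 TPM from 388 reads in db/db liver. The log2 ratio of -0.13 had an interval of -0.35 to 0.09, so no difference between the libraries was detectable at this depth as deposited. Under the other scalings the log2 ratio was -0.44 to -0.38, still within 1.5-fold but below that interval, so this reading depends on the scaling.

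**Figure D2:**
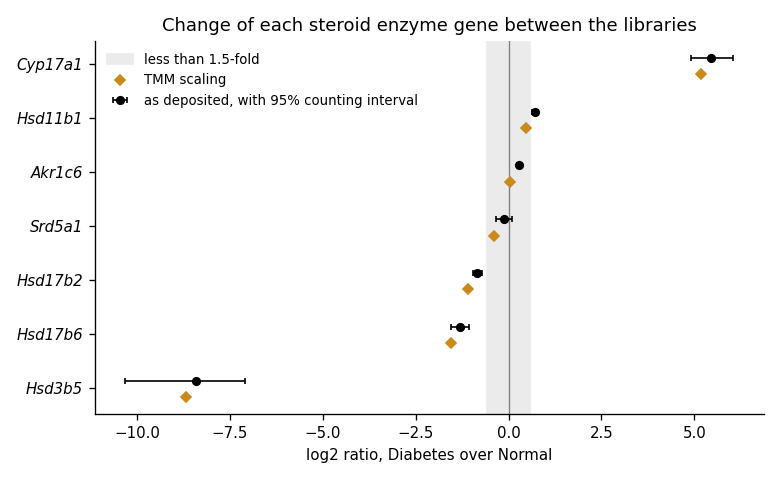
log2 ratio of each gene, diabetic over normal, as deposited (black circles, with the exact 95% counting interval) and under trimmed-mean (TMM) scaling (diamonds), with the band of less than 1.5-fold in grey. The diamond of Hsd11b1 falls inside the band at 0.46 and that of Akr1c6 sits at 0.03, while Hsd3b5, Hsd17b2, Hsd17b6 and Cyp17a1 stay outside it on the same side.

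Hsd11b1 encodes the dehydrogenase that in liver works as a reductase and regenerates corticosterone, the active glucocorticoid of mice, from its inert keto form. It was counted 2519 times in normal liver, 245.07 TPM (235.6 to 254.8), and 5417 times in db/db liver, 401.01 TPM (390.4 to 411.8). This is 1.64-fold higher, a log2 ratio of 0.71 (0.64 to 0.78), while the other scalings gave 0.40 to 0.46, below 1.5-fold.

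The reductase direction of Hsd11b1 draws on NADPH that H6pd makes in the lumen of the endoplasmic reticulum. H6pd was at 107.6 TPM (1106 reads) in normal liver and at 58.56 TPM (791 reads) in db/db liver, and the log2 ratio was -0.88 (-1.01 to -0.74). The enzyme and its cofactor source therefore stood on opposite sides, and the reads of Hsd11b1 per read of H6pd were 2.28 (2.12 to 2.45) and 6.85 (6.35 to 7.39). This quotient, free of the scaling, changed 3.01-fold (2.71 to 3.34).

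Nr3c1, the glucocorticoid receptor, was at 35.02 and 41.38 TPM, within 1.5-fold (log2 ratio 0.24, and -0.01 under TMM scaling). Serpina6, which encodes the plasma carrier of corticosterone, was at 51.66 and 94.39 TPM, a log2 ratio of 0.87 (0.72 to 1.02). On the list of receptors and carriers 3 of the 8 genes had a row, of which 2 were at least 1.5-fold higher and 1 within. Beside this and each later list stand all listed genes, of which 34.4% were higher and 15.3% lower as deposited. Under TMM scaling 2053 of the 8551 were higher and 2023 lower. The estrogen receptor gene Esr1 had no row. The other estrogen receptor gene, Esr2, had 24 reads in normal liver and 111 in db/db liver, with a log2 ratio of 1.82 (1.17 to 2.52).

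Known target genes of the glucocorticoid receptor were read beside Hsd11b1. Of 12 with a row, 7 were at least 1.5-fold higher, 1 lower and 4 within, with a median log2 ratio of 1.03. The most abundant of them, Tat, an enzyme of tyrosine breakdown, was at 1762.7 and 1532.92 TPM, a log2 ratio of -0.20. Pck1, the gluconeogenic enzyme, was at 667.8 and 2047.2 TPM, and Tdo2, which degrades tryptophan, at 502.6 and 820.83 TPM, the latter below 1.5-fold under TMM scaling (log2 ratio 0.45). Igfbp1 was at 126.96 and 45.75 TPM, the 1 gene on the lower side. The metallothioneins Mt1 and Mt2 and the lipocalin Lcn2 had log2 ratios of 4.13, 4.40 and 2.10. At lower levels, Fkbp5 had 34 and 175 reads and Per1 had 30 and 101 reads, with log2 ratios of 1.97 and 1.36.

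**Figure D3:**
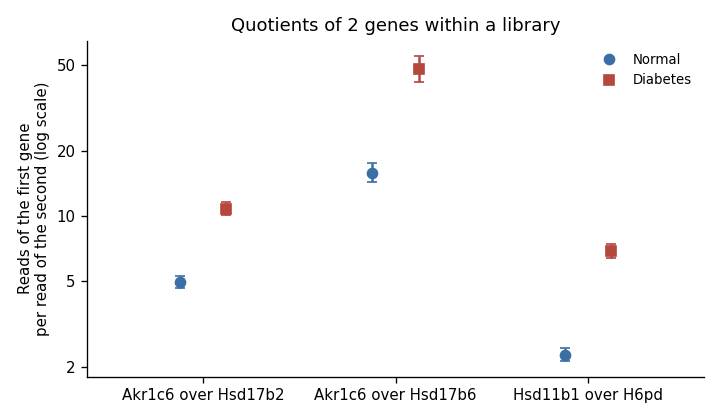
Reads of the first gene per read of the second within each library (log axis), circles for the normal and squares for the diabetic library, bars for exact 95% counting intervals. The intervals of both libraries are apart for each of the 3 quotients, at 4.94 and 10.8 for Akr1c6 over Hsd17b2, 15.8 and 47.6 for Akr1c6 over Hsd17b6, and 2.28 and 6.85 for Hsd11b1 over H6pd.

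Cyp17a1 encodes the P450 enzyme that hydroxylates progestogens and cleaves them to androgens, known best from gonads. It was counted 27 times in normal liver, 2.63 TPM (1.73 to 3.82), and 1546 times in db/db liver, 114.45 TPM (108.8 to 120.3). The ratio was 43.5-fold higher, a log2 ratio of 5.44 (4.90 to 6.05), and 5.14 to 5.19 under the other scalings. By the ratio of deposited values, genes at the 0.01 TPM placeholder included, it had rank 45 from the highest of 8551 genes, and in the order of levels it moved from rank 6404 to rank 629.

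Markers of the organs that make steroid hormones were read beside Cyp17a1. Of the 7 markers of adrenal cortex or gonad, only Cyp21a1 had a row. Its level was 20.04 TPM (206 reads) in normal liver and 11.99 TPM (162 reads) in db/db liver. Star, Cyp11a1, Cyp11b1, Mc2r, Nr5a1 and Insl3 were not in the table, nor was any of 7 kidney tubule or 4 adipocyte markers. A gene without a row can still have had tags, since genes averaging under 1 TPM were left out. The part of these tissues in the level of Cyp17a1 was not tested.

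The electron donor that P450 enzymes of the endoplasmic reticulum share, Por, was at 19.85 TPM (204 reads) in normal and 124.0 TPM (1675 reads) in db/db liver, and the log2 ratio was 2.64 (2.43 to 2.86). Cytochrome b5, listed as Cyb5, which favours the lyase step of Cyp17a1, was at 4020 and 3862 TPM (log2 ratio -0.06). Of all 8 electron and cofactor partners, 4 were at least 1.5-fold higher (Por, Fdx1, Fdxr and Pgrmc1), 1 lower (H6pd) and 3 within. Under the other scalings 3 of the partners were higher and 2 lower, and Fdxr was below 1.5-fold.

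Other P450 enzymes that hydroxylate steroids gave 6 higher, 2 lower and 1 within of 9 with a row, Cyp17a1 not among them, and 5 higher and 3 lower under the other scalings. Cyp21a1, given above as a marker, is 1 of the 2 lower genes, so its value is used in both places. Cyp7b1, which hydroxylates oxysterols and androgen metabolites, was on the lower side with Hsd3b5, at 538.21 TPM (5532 reads) and 32.2 TPM (435 reads), a log2 ratio of -4.06 (-4.21 to -3.92). The Cyp3a enzymes that hydroxylate testosterone were on the higher side with Cyp17a1. Cyp3a11, the most abundant of them, was at 937.39 and 2377.29 TPM, Cyp3a25 at 269.88 and 1421.8 TPM, Cyp3a16 at 20.04 and 41.83 TPM, and Cyp3a13 at 26.17 and 40.05 TPM. The log2 ratio of Cyp3a13 was 0.61 as deposited and 0.36, below 1.5-fold, under TMM scaling. Cyp2a5 had a log2 ratio of 3.26 (3.09 to 3.43).

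Relatives of the dehydrogenases were read from a list of their own. Of 8 other hydroxysteroid dehydrogenases with a row, 4 were at least 1.5-fold higher, 2 lower and 2 within, and only Hsd17b10 remained higher under the other scalings, with a log2 ratio of 1.47 as deposited and 1.22 under TMM scaling. Hsd17b4, of peroxisomal fatty acid oxidation, and Hsd17b11, a lipid droplet protein, were at 236.03 and 395.46 TPM and at 85.42 and 144.58 TPM. Hsd17b7, of cholesterol synthesis, was at 16.93 and 29.17 TPM. Hsd3b7, a bile acid synthesis enzyme that shares the name of the Hsd3b family, was at 179.89 and 115.26 TPM, a log2 ratio of -0.64 (-0.74 to -0.54), far from the ratio of Hsd3b5.

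Of 6 other steroid reductases and Akr1c enzymes with a row, 5 were at least 1.5-fold higher and 1 within, and 3 were higher under the other scalings. Akr1d1, which reduces the same ring bond as Srd5a1 to the other configuration, was at 134.65 TPM (1384 reads) and 488.74 TPM (6602 reads), a log2 ratio of 1.86 (1.78 to 1.94), against -0.13 for Srd5a1. The Akr1c genes next to Akr1c6 on chromosome 13 spread from within 1.5-fold to 2.86-fold higher. Akr1c19 and Akr1c20 had log2 ratios of 1.52 and 1.21, and Akr1c12 and Akr1c13 had 0.81 and 0.62, against 0.29 for Akr1c6.

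Enzymes that conjugate steroids for excretion gave 10 higher, 1 lower and 4 within of 15 with a row, and 9 higher and 2 lower under the other scalings. The sulfotransferases held the most distant values. Sult1e1, the estrogen sulfotransferase, had 0 reads in normal liver and 1015 in db/db liver, at least 257-fold higher against 3 reads. Sult2a2, of the hydroxysteroid sulfotransferases, had 2 and 2000 reads, a log2 ratio of 9.61 (7.72 to 12.62). Papss2, which makes the sulfate donor, was at 31.62 and 99.87 TPM. Among glucuronosyltransferases, Ugt2b36, Ugt2b5, Ugt2b1 and Ugt2a3 had log2 ratios of 1.07, 1.15, 0.94 and 0.92, and Ugt2b38, at 105.66 and 2.15 TPM, was the 1 lower gene. Sult1a1 had a log2 ratio of 0.66 as deposited and 0.40, below 1.5-fold, under TMM scaling.

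**Figure D4:**
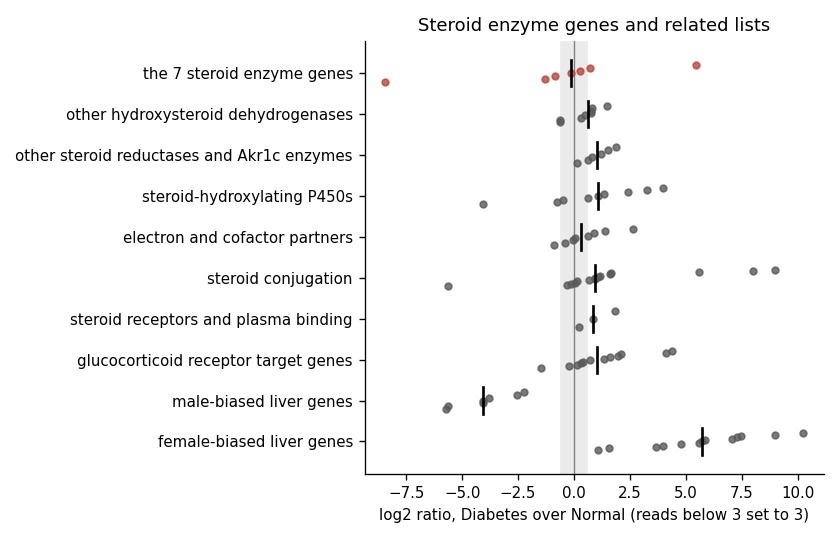
log2 ratio, diabetic over normal, of the 7 steroid enzyme genes (red) and of each gene with a row on 9 related lists (grey), counts below 3 reads set to 3, black ticks for medians, and the grey band for less than 1.5-fold. The 7 genes range from -8.43 to 5.44 around a median of -0.13, while the male-biased and female-biased lists lie wholly on the lower and the higher side.

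Since Hsd3b5 is known as a male-biased gene, lists of sex-biased liver genes that do not contain any of the 9 were read beside it. All 7 male-biased genes with a row, of 14 on the list, were past 1.5-fold on the lower side (median log2 ratio -4.06, against -8.43 for Hsd3b5). They were Cyp7b1, Elovl3, Slco1a1, Mup3, Mup20, C6 and Ugt2b38. All 13 female-biased genes with a row, of 16 on the list, were past 1.5-fold on the higher side (median log2 ratio 5.72, counts below 3 reads set to 3). Among them were Cyp2b9, Cyp2b10, Cyp2b13, Cyp3a16, Cyp3a44, Cyp4a14, Sult2a1, Sult2a2, Sult3a1, A1bg, Hao2 and Slco1a4. These counts were the same under each of the other scalings. Cyp7b1, Ugt2b38, Cyp3a16, Cyp3a44, Sult2a1 and Sult2a2 also stand on the lists of P450 or conjugating enzymes above, so the lists are not separate evidence.

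The genes whose pair of levels lay nearest to those of Hsd3b5 were Vdac2 (241 and 0 reads), Arpc5l (377 and 14 reads) and Slco1a1 (841 and 21 reads). The distance, over the log2 reads of both libraries with counts below 3 set to 3, was 2.18, 2.34 and 2.42, so none was close to Hsd3b5. Nearest to Cyp17a1 were Mfsd2a, which carries lysophospholipids, at 4.09 and 98.09 TPM, LOC100045065 at 3.21 and 52.86 TPM, and the metallothionein Mt2 at 6.23 and 131.4 TPM. Their distances were 0.675, 1.15 and 1.26, over 2 libraries only.

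The tissue was checked against its markers. All 6 hepatocyte markers had a row, with a summed level of 8288 TPM in normal and 8042 TPM in db/db liver, of which 2 were at least 1.5-fold higher, 2 lower and 2 within. Most of that sum was Alb, while Apob was at 804.1 and 147.32 TPM. Of 7 Kupffer cell markers 5 had a row, summed at 100.8 and 81.95 TPM, with 0 higher, 2 lower and 3 within. Cd5l made up most of that sum at 64.7 and 62.92 TPM, while Csf1r was at 21.7 and 10.14 TPM and Adgre1, listed as Emr1, at 8.95 and 4.37 TPM. All 5 sinusoidal endothelium markers had a row, summed at 89.5 and 80.5 TPM, with 2 higher, 1 lower and 2 within. Of 5 cholangiocyte markers 3 had a row, summed at 61.5 and 107 TPM, most of it from Spp1, the 1 higher gene. The markers Marco, Vsig4, Krt19 and Sox9 had no row. Under the other scalings 3 Kupffer cell and 2 endothelium markers were lower. The number higher was then 0 to 2 for endothelium and 0 to 1 for cholangiocyte markers, depending on the scaling. The part of these cell types in the levels of the steroid enzyme genes was not tested.

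The 7 genes together held 1127.97 TPM in normal liver and 1344.73 TPM in db/db liver, and the log2 ratio was 0.25 (0.22 to 0.29), equal at this precision to the 0.25 of the median listed gene. The make-up of that sum differed between the libraries. Akr1c6 took 52.2% (95% Wilson interval, 51.3 to 53.1) and 53.4% (52.7 to 54.2) of it, and Hsd11b1 21.7% and 29.8%. Hsd17b2 took 10.6% and 4.95%, Hsd17b6 3.30% and 1.12%, and Srd5a1 2.79% and 2.14%. Hsd3b5 went from 9.15% (8.64 to 9.69) to 0.0220% (0.00856 to 0.0566), and Cyp17a1 from 0.233% (0.160 to 0.339) to 8.51% (8.11 to 8.93).

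In the normal library the order of levels was Akr1c6, Hsd11b1, Hsd17b2, Hsd3b5, Hsd17b6, Srd5a1 and Cyp17a1, and Hsd17b6 and Srd5a1 were the only neighbours whose intervals overlapped. In the diabetic library it was Akr1c6, Hsd11b1, Cyp17a1, Hsd17b2, Srd5a1, Hsd17b6 and Hsd3b5, with no overlap between neighbours. Levels of different genes also carry how well each site is cut and read, which was not corrected.

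The promoters were searched for 3 motifs on both strands, TTCNNNGAA of STAT factors, TGTTCT as the steroid receptor half-site, and TATAAA, in RefSeq promoters of the GRCm38.p6 assembly from 250 bases before to 50 bases after the start. Of all 32851 promoters, 8.30%, 19.0% and 13.6% held them. Of 7 genes with an entry, 5 held none of the motifs (Hsd3b5, Hsd3b3, Hsd11b1, Hsd17b6 and Srd5a1), Hsd3b2 held 1 half-site and Akr1c6 held 1 TATAAA. Cyp17a1 and Hsd17b2 were not searched. A lack of these letters in the window says nothing of the factors.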

How the data were processed

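Liver RNA of 1 normal and 1 diabetic (db/db) library was profiled with DpnII tags. The authors isolated poly(A) RNA, made cDNA, cut it with DpnII and read the tags with an Illumina 1G instrument. Adaptors were trimmed, clean tags of high quality were compared with RefSeq, and the authors left out genes with a mean under 1 TPM. The submitters' processing notes name the build mm9; the aligner is not given in the sources used here. The deposited values, called TPM, are RPM values, tags of a gene per 1000000 clean tags, rounded to 2 decimals with 0.01 where no tag was counted. No value column was left unused (0).

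The values rise in steps of 1 read, 0.0973 TPM in the normal and 0.0740 TPM in the diabetic library, which gives 10278531 and 13508232 clean tags. Whole reads were obtained for all 8513 values of the normal library above the placeholder and for 8536 of 8537 of the diabetic library, within the rounding to 2 decimals. A count of 0 allows 3 reads, 0.292 and 0.222 TPM. Ratios are of the deposited values, with exact Clopper-Pearson 95% intervals from the reads. Tags carry no molecular identifiers, so intervals cover counting error only.

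The genes and lists were chosen with earlier results of these data known. With 1 library per group nothing was tested between conditions, and a gene was called higher or lower at 1.5-fold. Genes named are the 9, each listed gene at least 1.5-fold changed and averaging at least 20 TPM, the most abundant gene of each list, the partners H6pd, Cyp7b1, Nr3c1, Serpina6 and Esr1, and the 3 genes nearest to Hsd3b5 and to Cyp17a1. Outside this rule, Esr2, Fkbp5 and Per1 are also given, each averaging under 20 TPM. For the sex-biased lists counts, medians and names of genes are given. 1 further gene of the naming rule is not reported here. Alternatives were 4 scalings (to the sum of listed genes, TMM with 30% and 5% trimmed, median ratio over genes of at least 10 TPM, and upper quartile at percentile 75), pseudocounts of 0.1 and 1 TPM, a mean of at least 5 TPM, 2-fold, an interval wholly past 1.5-fold, and a two-sided exact binomial test (Benjamini-Hochberg adjusted across the table). Tags were predicted as the last GATC and 16 further bases of GENCODE vM21 transcripts with a RefSeq mRNA. The length of the authors' tags is not stated. The computation was tested on simulated data with 200 changed genes. Python 3.11.15, numpy 2.4.6, pandas 2.3.3, scipy 1.17.1 and matplotlib 3.10.9 were used.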

Additional observations from a re-analysis of the deposited data

How the results depend on the processing

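Of the 7 steroid enzyme genes, 2 were at least 1.5-fold higher as deposited and 1 under each of the 4 other scalings and at 2-fold, because Hsd11b1 dropped out. The number lower was 3 in every setting tried except 2-fold, where it was 2. No log2 ratio of a called gene changed sign, and the summed level without Akr1c6 had a log2 ratio of 0.22. Over all listed genes, 2941 were higher as deposited, 1874 under median-ratio scaling, 1773 with a mean of at least 5 TPM, 1589 at 2-fold, 1491 with the interval wholly past 1.5-fold, and 1955 when an FDR under 0.001 in the exact test, a comparison of libraries rather than conditions, was also required. In the same way 1310 were lower as deposited, 2044 when scaled to the sum of listed genes, 2023 under TMM, 2189 under median-ratio and 2076 under upper-quartile scaling, 658 with a mean of at least 5 TPM, 582 at 2-fold, 459 by the interval and 700 with the FDR. Each scaling shifts every log2 ratio by the same amount, estimated from these libraries and here downward by 0.25 to 0.31. The other settings drop genes by construction. The summed level of Hsd3b5, Hsd3b2 and Hsd3b3 could not be given, since only Hsd3b5 of these has a row. The planned protein comparison was not run. No paired analysis was possible because each group is 1 library and nothing was tested. What 1 library per group cannot show is the spread between mice.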
